A study of Homo sapiens with 6 samples.

Results

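Cadherins and catenins were examined in RNA-seq data from DLD1 cells, a human colorectal cancer cell line of epithelial origin. The genes were chosen by name: 9 of the 58884 genes in the table of counts, matched by gene symbol, of which 8 were among the 16059 genes with enough counts for a test. They were split by textbook role into 3 epithelial cadherins (CDH1, CDH3 and CDH17), 4 mesenchymal cadherins (CDH2, CDH6, CDH11 and CDH13) and 2 catenins (CTNNA1 and CTNND1). Parental DLD1 cells (3 libraries) were compared with DLD1 cells carrying the K477A and R478A changes in p85β (3 libraries), called p85β KR-AA cells here. p85β is a regulatory subunit of phosphoinositide 3-kinase encoded by PIK3R2, and the changed residues lie in its predicted nuclear localization sequence, so that the comparison addresses which transcripts differ when that sequence is changed. Both groups carry the PIK3CA helical domain mutation of DLD1 cells, and the labels name no treatment. The study derived the p85β KR-AA cells as knock-in clones, and the labels do not name the clone behind each library, so that the genotype and the clone cannot be told apart. The labels also do not say whether replicates were separate cultures, so that p-values measure the spread between these libraries, which may be technical.

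Classical cadherins are single-pass membrane proteins whose extracellular repeats bind calcium and pair with cadherins on the next cell. Their cytoplasmic tail binds p120-catenin (CTNND1), which keeps the cadherin at the membrane, and β-catenin, which in turn binds α-catenin (CTNNA1), the link to actin filaments. Epithelial cells are held together mainly by E-cadherin (CDH1), and a shift from CDH1 to N-cadherin (CDH2) or cadherin-11 (CDH11) is the classical sign of an epithelial-mesenchymal transition.

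Counts summed to between 20301396 and 26712816 per library, and 1 count was worth 0.0273 to 0.0728 CPM (counts scaled by the TMM-adjusted library size). A gene was called up or down at a fold change of at least 3 with an adjusted p under 0.01 by edgeR's quasi-likelihood test with Benjamini-Hochberg adjustment over all genes tested. By that rule 46.2% of all genes tested were called, 28.6% up and 17.6% down, and the median log2 fold change of all genes was 0.32. Scaling by library totals instead of TMM raised that median by 0.92 to 1.24, so that directions of small size depend on the scaling. Of 16 colon epithelium markers, 11 were called down and 1 up, with summed levels of 59218.7 to 81600.1 CPM in parental and 9155 to 10716 CPM in p85β KR-AA libraries. By library totals 6 of them were called down, and 3 once the dependence on gene length and GC content was fitted out in each library (called length and GC offsets here). Of 16 fibroblast markers, 10 were tested, with 7 called up and 0 down. COL3A1, COL5A1, COL6A3, DCN and LUM, with at most 3 counts in any parental library, could only be called up. COL1A2 and PDGFRA had no count in any p85β KR-AA library. Summed levels of the list were 118 to 138 CPM in parental and 6538 to 7476 CPM in p85β KR-AA libraries. Most of that sum was FN1 (fibronectin), at 4.28 ± 0.624 and 4992 ± 408 CPM, and VIM (vimentin), at 0.803 ± 0.182 and 1772 ± 70.1 CPM. EPCAM, which marks epithelial cells, remained at 172 ± 22.7 CPM (SD, n = 3) in p85β KR-AA libraries against 313 ± 58.8 CPM in parental libraries. The counts carry no genotype, so that the identity of the p85β KR-AA libraries rests on their labels, and each fold change below is between libraries with these labels. For p85β KR-AA replicates 2 and 3 the source names give another position of the second amino acid change than the titles and genotype labels. The titles were followed. The part of these markers in the results on cadherins was not tested. In bulk RNA, fewer cells of a type and less RNA per cell cannot be told apart.

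Of the 8 cadherin and catenin genes tested, 6 were called up and 0 down, beside the 28.6% of all genes called up. CDH2, CDH11 and CDH13 had enough counts for a test through the p85β KR-AA libraries alone and could only be called up, so that this count is no support for a direction. Among the other 5 (CDH1, CDH3, CDH17, CTNNA1 and CTNND1), 3 were called up and 0 down, and with length and GC offsets none of the 5 was called. In 7 of the 9 genes every p85β KR-AA library lay above every parental library in CPM, as in 47.0% of all genes tested. The mesenchymal CDH11 and CDH13 went from at most 4 counts in any parental library to mean levels of 114 and 73.0 TPM, beside 183 TPM for CDH1, which rose as well. CDH3 did not pass the test, and CDH6 was almost undetected in both conditions. TPM (computed from the deposited counts and gene lengths) is a level per gene length and allows different genes to be set side by side.

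**Figure D1:**
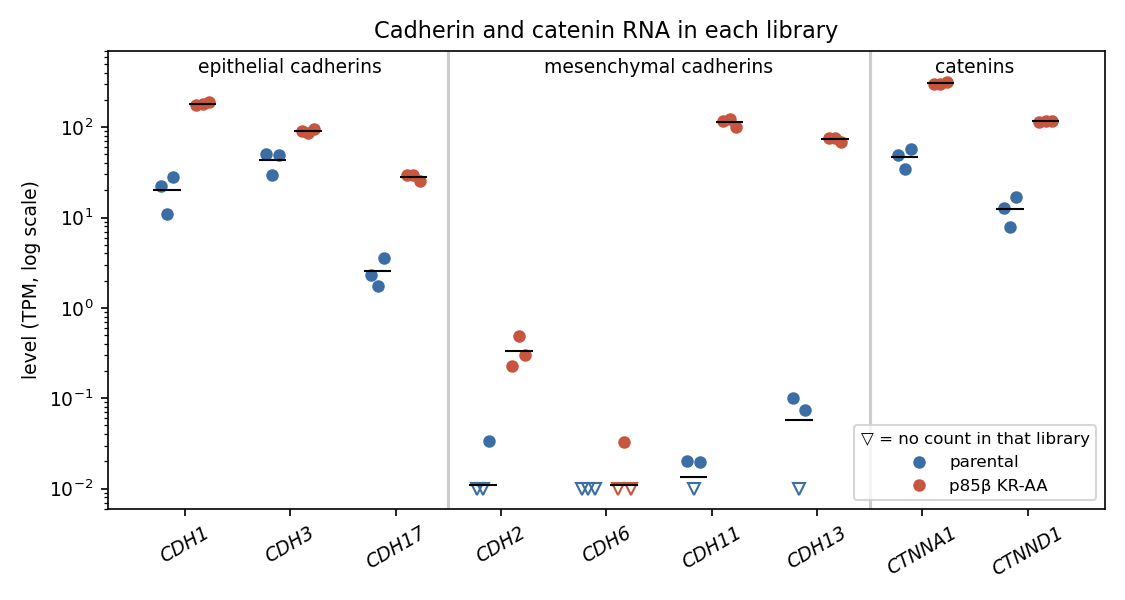
Level of each cadherin and catenin gene (TPM, log scale) in the 3 parental (blue) and 3 p85β KR-AA (red) libraries, with open triangles for libraries without a count and black bars for the mean of the 3 libraries. CDH11 sits between 99.6 and 124 TPM in p85β KR-AA libraries and at or below 0.0202 TPM in parental libraries, while the levels of CDH6 overlap near 0.

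By mean level in parental libraries the order was CTNNA1 (46.7 TPM), CDH3 (43.0), CDH1 (20.4), CTNND1 (12.4) and CDH17 (2.55), with the 4 mesenchymal cadherins at or below 0.0578 TPM. CTNNA1 and CDH3 were closer together than their spread (SD 11.4 and 11.6 TPM, n = 3). In p85β KR-AA libraries the order was CTNNA1 (306 TPM), CDH1 (183), CTNND1 (115), CDH11 (114), CDH3 (90.4), CDH13 (73.0) and CDH17 (28.2), with CDH2 at 0.338 and CDH6 at 0.0109 TPM. There CTNND1 and CDH11 differed by less than the spread of CDH11 (SD 12.5 TPM).

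Of the 9 genes only CTNNA1 and CDH2 could be matched in RefSeq's table of promoters (GRCh38.p14), and the 250 bases before the first start of each are shown. In these libraries CTNNA1 was a strongly expressed and CDH2 a nearly silent gene of the set. Capitals mark the GC box GGGCGG on either strand, counted also where boxes share bases.
CTNNA1, chr5:138753175-138753424, plus strand: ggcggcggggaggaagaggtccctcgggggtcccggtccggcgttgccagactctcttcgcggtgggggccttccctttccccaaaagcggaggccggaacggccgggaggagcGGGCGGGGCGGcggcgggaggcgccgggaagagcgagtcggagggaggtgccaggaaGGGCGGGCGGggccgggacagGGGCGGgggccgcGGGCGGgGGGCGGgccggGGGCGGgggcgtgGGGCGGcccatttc
CDH2, chr18:28177131-28177380, minus strand: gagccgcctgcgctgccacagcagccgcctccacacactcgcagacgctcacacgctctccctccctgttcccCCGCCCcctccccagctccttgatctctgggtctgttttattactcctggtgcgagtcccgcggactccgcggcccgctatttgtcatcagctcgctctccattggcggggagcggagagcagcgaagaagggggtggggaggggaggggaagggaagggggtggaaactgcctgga
The CTNNA1 window was 80.0% G or C with 33 CpG and 9 GC boxes, and the CDH2 window was 66.0% G or C with 17 CpG and 1 GC box. The E-box CAGGTG, the letters that SNAIL and ZEB repressors are known to recognise, was searched on both strands and was present in neither window. Among all 35116 promoter windows of the same length, 42.6% held a GC box and 17.5% that E-box. These are descriptions of letters, not of binding. They hold for the first start listed. Windows before later starts held 4, 0 and 0 GC boxes for CTNNA1 and 0 for CDH2, and which start was in use was not tested.

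The epithelial cadherins came first in the comparison. CDH1 (E-cadherin, ENSG00000039068, chr16:68771195-68869440 in GRCh37) joins neighbouring epithelial cells. It had 106, 60.1 and 126 CPM in parental replicates 1, 2 and 3, and 334, 331 and 367 CPM in p85β KR-AA replicates 1, 2 and 3. The groups did not overlap, and parental replicate 2 was the lowest of the 6 libraries. Mean levels were 97.3 ± 33.7 CPM and 344 ± 20.2 CPM (SD, n = 3). CDH1 rose by 1.82 ± 0.22 (SE) on the log2 scale, with an adjusted p of 5.41e-06. Without parental replicate 2 the log2 fold change was 1.54, and CDH1 was no longer called.

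CDH3 (P-cadherin, ENSG00000062038, chr16:68670092-68761371), a classical cadherin of basal epithelial layers, ends 9823 bases before CDH1 starts. Its level was 221, 149 and 199 CPM in parental replicates 1, 2 and 3, and 155, 144 and 167 CPM in p85β KR-AA replicates 1, 2 and 3. These values overlapped, with a log2 fold change of -0.29 ± 0.15 and an adjusted p of 0.0943, whereas scaling by library totals gave 0.63 with an adjusted p of 0.00594. In TPM, where library composition and gene length enter otherwise, CDH3 stood at 29.7 to 50.7 in parental and 86.6 to 94.9 in p85β KR-AA libraries. With a length offset its log2 fold change was -0.96 (adjusted p = 4.58e-05 by edgeR), and with length and GC offsets -0.31 (adjusted p = 0.00707). Leaving out each library in turn under TMM gave -0.47 to -0.18. CDH3 was thus lower under TMM, with or without offsets, and higher by library totals and in TPM. No direction can be given for CDH3 apart from the scale chosen.

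CDH17 (LI-cadherin, ENSG00000079112, chr8:95139390-95229531) is a non-classical cadherin of the intestinal epithelium with a short tail that does not bind catenins. Parental replicates 1, 2 and 3 had 90, 71 and 140 counts (5.98, 5.17 and 8.64 CPM), and p85β KR-AA replicates 1, 2 and 3 had 1110, 825 and 725 counts (30.3, 28.7 and 26.4 CPM). The groups did not overlap, and CDH17 rose by a log2 fold change of 2.10 ± 0.20 (adjusted p = 7.98e-07). Its call ended with length and GC offsets (1.36). The list of colon epithelium markers also holds epithelial genes that are not particular to colon, KRT7 among them. Called down from it in the same libraries were KRT7, LGALS4, KRT8 and CLDN3, with log2 fold changes of -4.17, -3.17, -3.07 and -2.98. The offsets made these values -2.16, -1.43, -1.63 and -0.37. Of this list 4 were not called, among them KRT20 (-0.55, adjusted p = 0.110). The epithelial marker called up was CEACAM5, itself an adhesion molecule of colon epithelium (log2 fold change 5.66).

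Among the mesenchymal cadherins, CDH11 and CDH13 had the largest fold changes of the set. CDH11 (cadherin-11, ENSG00000140937, chr16:64977656-65160015), a classical cadherin of osteoblasts and other mesenchymal cells, had 2, 0 and 2 counts in parental replicates 1, 2 and 3. The p85β KR-AA replicates 1, 2 and 3 had 11268.8, 8919.7 and 7263.9 estimated counts, or 307, 311 and 265 CPM. Its mean went from 0.0854 ± 0.0741 to 294 ± 25.6 CPM, and the pooled CPM ratio was 3327 with a 95% counting interval of 1299 to 12212. Such intervals cover counting error only. The log2 fold change was 11.61 ± 0.29 with an adjusted p of 2.54e-11.

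CDH13 (T-cadherin, ENSG00000140945, chr16:82660570-83834245) is held at the membrane by a lipid anchor and has no cytoplasmic tail for catenins. It was at 4, 0 and 3 counts in parental replicates 1, 2 and 3 and at 2921, 2190 and 2029 counts in p85β KR-AA replicates 1, 2 and 3. The p85β KR-AA libraries were close to each other at 79.7, 76.3 and 73.9 CPM and far above every parental library. The pooled ratio was 495 (counting interval 240 to 1230) and the log2 fold change 8.90 ± 0.32 (adjusted p = 5.16e-10). CDH13 spans 11 other annotated genes, of which HSBP1 was well counted, with means of 2196 and 2358 counts in parental and p85β KR-AA libraries, and the others had at most 2 counts in any library.

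CDH2 (N-cadherin, ENSG00000170558, chr18:25512843-25757910), the neural and mesenchymal cadherin most often set against CDH1, stayed rare. It had 0, 0 and 2 counts in parental replicates 1, 2 and 3 and 13, 21 and 13 counts in p85β KR-AA replicates 1, 2 and 3. At 0.355 to 0.731 CPM the p85β KR-AA libraries lay above the parental ones, which ended at 0.123 CPM. The pooled ratio was 11.4 with a counting interval of 2.98 to 96.8, and CDH2 was called up with a log2 fold change of 3.38 ± 0.84 (adjusted p = 0.00239). The call was lost without parental replicate 1 (2.85) or parental replicate 2 (2.89), and under DESeq2 (3.53, adjusted p = 0.0176).

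CDH6 (K-cadherin, ENSG00000113361, chr5:31193793-31329253), a cadherin of kidney and neural crest, had no count in any parental library and 0, 3 and 0 counts in p85β KR-AA replicates 1, 2 and 3. It was too low for a test, and no fold is given. A count of 0 allows up to 3 counts, or 0.185 to 0.218 CPM in a parental library, so that a difference in CDH6 was not detectable at this depth.

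Both catenins followed the direction of CDH1, and 1 of them passed the call. CTNND1 (p120-catenin, ENSG00000198561, chr11:57520715-57587018) had 79.2, 55.8 and 97.0 CPM in parental replicates 1, 2 and 3 and 280, 273 and 289 CPM in p85β KR-AA replicates 1, 2 and 3. The groups did not overlap, and the log2 fold change was 1.86 ± 0.18 (adjusted p = 7.05e-07), but it was -0.18 once gene length and GC content were fitted out. CTNNA1 (αE-catenin, ENSG00000044115, chr5:137946656-138270723) had 181, 145 and 196 CPM and 433, 426 and 471 CPM in the same order. Its groups did not overlap either, and its log2 fold change of 1.35 ± 0.14 (adjusted p = 1.43e-06) corresponded to 2.55-fold, under the fold required for a call. By library totals it was 2.26 and CTNNA1 was called up. With a length offset it was 1.01 and with length and GC offsets 0.79, and CTNNA1 was called in neither.

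Ratios of 2 genes within a library do not depend on how library sizes are scaled. An exact permutation test of 3 against 3 libraries, two-sided, cannot give a p below 0.1, and 7 ratios were computed, so that none can pass a correction. All but CDH1 to CDH2 were chosen with the changes of single genes known, so that their p-values are not independent of those changes. The log2 ratio of CDH1 to CDH11 counts, with 0.5 added to each count, was 9.32, 10.69 and 9.67 in parental replicates 1, 2 and 3 and 0.12, 0.09 and 0.47 in p85β KR-AA replicates 1, 2 and 3. Its mean fell from 9.89 to 0.23 without overlap (difference -9.67, or -8.14 with 3 added, each with the smallest p of the exact permutation test, 0.1). Per gene length, CDH1 remained above CDH11 in each p85β KR-AA library (176, 181 and 190 against 118, 124 and 99.6 TPM).

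The log2 ratio of CDH1 to CDH2, the usual pair, was 11.64, 10.69 and 9.67 in parental replicates and 9.82, 8.79 and 9.54 in p85β KR-AA replicates. These overlapped (difference -1.28, exact permutation p = 0.2), and with 3 added to each count the difference was 0.56 (exact permutation p = 0.3). At these CDH2 counts the sign of the difference was set by the number added. Per gene length CDH1 was far above CDH2 in both conditions, at 183 against 0.338 TPM in p85β KR-AA libraries.

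CDH1 and CDH3 changed places, from 20.4 and 43.0 TPM to 183 and 90.4 TPM, the log2 ratio of CDH1 to CDH3 counts going from -1.01 ± 0.33 to 1.15 ± 0.05 without overlap (difference 2.16, exact permutation p = 0.1, the smallest possible). Length and GC offsets brought the log2 fold changes of CDH1 and CDH3 closer together, at 0.97 and -0.31 in place of 1.82 and -0.29. CDH13 to CDH11 went from 0.44 ± 0.43, on at most 4 counts of either gene, to -1.94 ± 0.09. CTNND1 to CDH1 was -0.30 ± 0.17 and -0.29 ± 0.05 (exact permutation p = 0.9), so that no difference in the ratio of p120-catenin to E-cadherin counts was seen beyond its spread. Length and GC offsets, which act on each gene, parted the log2 fold changes of these genes (0.97 for CDH1 and -0.18 for CTNND1). CTNNA1 to CDH1 went from 0.89 ± 0.33 to 0.37 ± 0.01 (difference -0.53, exact permutation p = 0.1), and CTNNA1 to CTNND1 from 1.20 ± 0.18 to 0.66 ± 0.04 (difference -0.54, exact permutation p = 0.1). These 2 falls also depended on the processing. Length and GC offsets gave log2 fold changes of 0.79 for CTNNA1, 0.97 for CDH1 and -0.18 for CTNND1. CTNNA1 thus stood above CTNND1 with offsets and below it without them (1.35 and 1.86).

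The make-up of cadherin RNA was computed over 22 classical and related cadherin genes from TPM. Their summed level was 92.2, 55.1 and 95.5 TPM in parental replicates 1, 2 and 3 and 520, 526 and 502 TPM in p85β KR-AA replicates 1, 2 and 3. TPM depends on library composition and gene length, so that the size of this rise holds for that scale only. In CPM the 3 epithelial cadherins summed to 214 to 334 in parental and 504 to 561 in p85β KR-AA libraries. The 4 mesenchymal ones summed to 0 to 0.432 and 339 to 388 CPM, and the other 15 to 41.6 to 49.5 and 36.8 to 52.0 CPM. In parental libraries CDH3 made up 53.3 ± 2.10% of this sum, CDH1 24.4 ± 4.78%, CDH24 14.7 ± 3.0% and CDH17 3.14 ± 0.610%. In p85β KR-AA libraries the largest share was that of CDH1 (35.5 ± 2.15%), followed by CDH11 (22.0 ± 1.93%), CDH3 (17.6 ± 1.24%), CDH13 (14.2 ± 0.433%) and CDH17 (5.46 ± 0.343%). CDH1 shares ranged from 19.8% to 29.3% in parental and from 34.0% to 37.9% in p85β KR-AA libraries, without overlap. The 3 epithelial cadherins together went from 80.8 ± 3.63% to 58.5 ± 2.98%, and the 4 mesenchymal ones from 0.0877 ± 0.0759% to 36.2 ± 2.32% (SD, n = 3). Epithelial cadherins thus remained the larger part of the summed TPM of these 22 genes in each p85β KR-AA library (56.5% to 61.9%). Desmosomal, large and atypical cadherins, reported below, were outside this sum. Among them FAT1 stood at 6.13 TPM in parental and 153 TPM in p85β KR-AA libraries on average, so that the shares do not hold for all cadherin RNA. These shares are descriptions without a test.

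**Figure D2:**
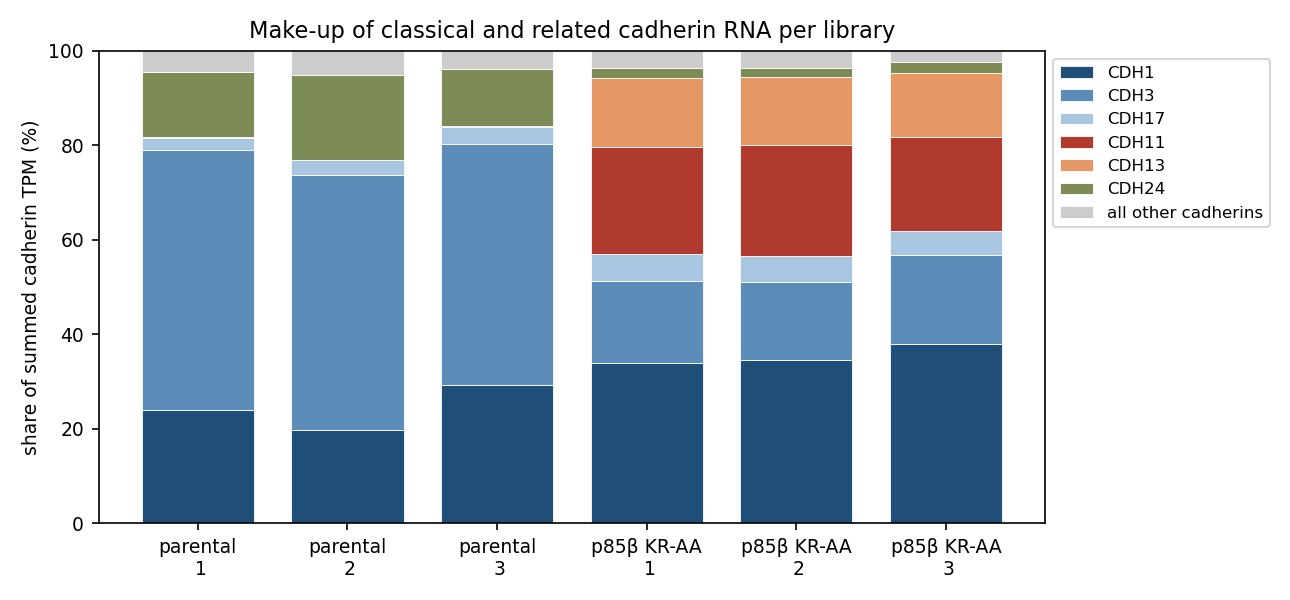
Share of the summed TPM of 22 cadherin genes (%) taken by each named gene in the 6 libraries, parental on the left and p85β KR-AA on the right, with blue for epithelial and red to orange for mesenchymal cadherins. CDH11 and CDH13 take 22.0% and 14.2% on average in p85β KR-AA libraries and under 0.2% in each parental library, while CDH3 shrinks from 53.3% to 17.6% and CDH1 grows from 24.4% to 35.5% on average.

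Fold changes across all genes moved with gene length in these libraries, so each cadherin and catenin was set beside genes of like length (0.8 to 1.25 times its own). Genes of the length of CTNND1 (6313 bases) stood at 1.74 in the median on the log2 scale, with 52.5% called up, so that CTNND1 at 1.86 lay near the middle of its length class. CDH1 (4878 bases) stood at 1.82 beside a median of 1.24, with 42.7% of its class called up, and CTNNA1 (3754 bases) at 1.35 beside 0.76. CDH3 (4452 bases) was below its class median of 1.05. CDH17 (2625 bases) at 2.10 and CDH13 (2722 bases) at 8.90 stood in classes with medians of 0.08 and 0.14, of which 21.6% and 22.3% were called up. CDH11 (6722 bases), at 11.61, had a class median of 1.83 with 55.1% called up, and CDH2 (4016 bases), at 3.38, a class median of 0.84.

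**Figure D3:**
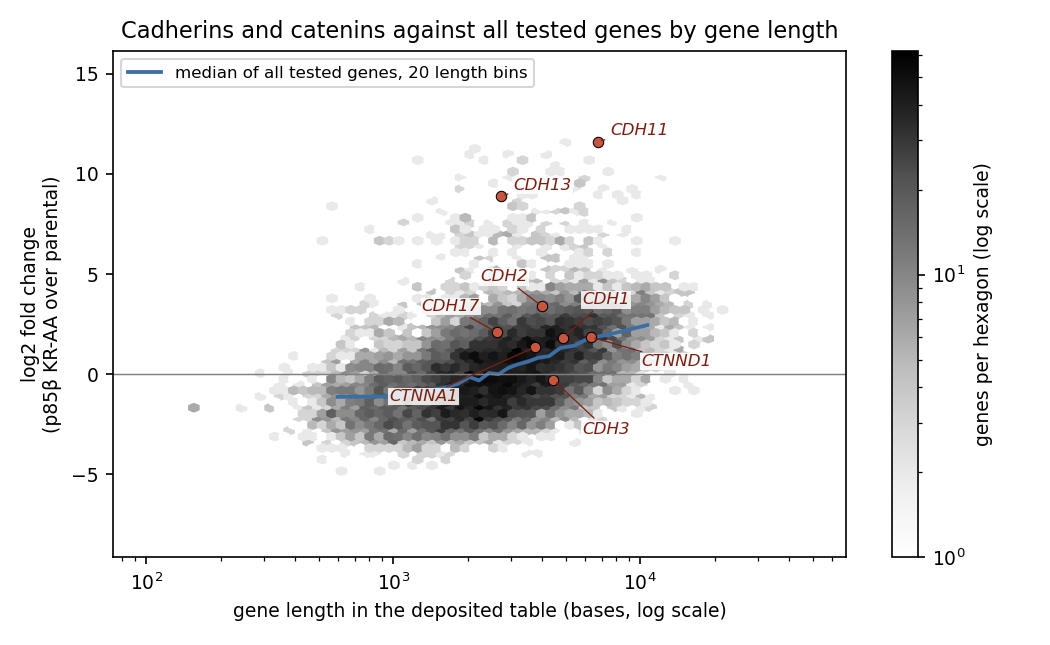
Log2 fold change (p85β KR-AA over parental) against gene length in the deposited table (bases, log scale) for all 16059 genes tested (grey hexagons, darker for more genes), with the median of 20 length bins as a blue line and the 8 tested cadherin and catenin genes in red. CTNND1 and CDH1 lie close to the line, CDH3 below it, and CDH11 and CDH13 far above it.

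With offsets that remove the relation with length and GC content in each library, CDH11 and CDH13 remained called up, with log2 fold changes of 9.69 and 8.11. CDH1 (0.97), CDH17 (1.36) and CDH2 (2.21) kept their direction but were not called, and CTNND1 turned to -0.18. CTNNA1 (0.79) and CDH3 (-0.31), not called in the main fit, kept their direction and were not called here either. Such offsets take out any dependence on these properties, technical or not, and the part of length in these results was not tested further.

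**Figure D4:**
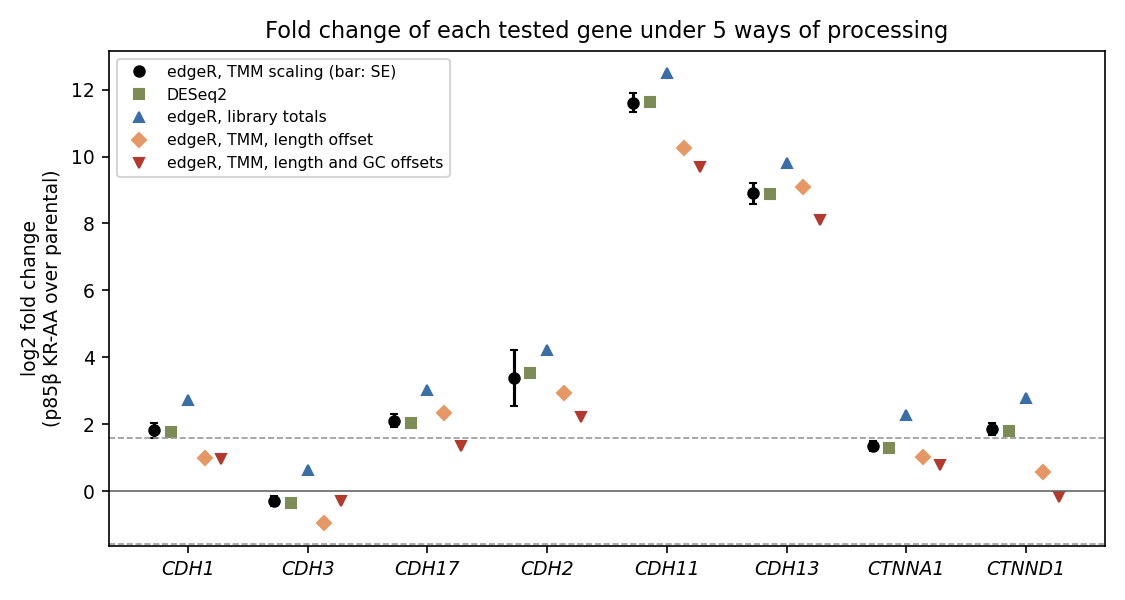
Log2 fold change (p85β KR-AA over parental) of the 8 tested genes under 5 ways of processing, with bars for the SE of the edgeR fit with TMM and dashed lines at a fold change of 3 in either direction. CDH11 and CDH13 stay above 8 throughout, CDH3 crosses 0 with library totals (0.63), and CTNND1 crosses 0 with length and GC offsets (-0.18).

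The genes whose pattern over the 6 libraries was most like that of CDH1, by Euclidean distance of row-centred log2 CPM, were DOP1B (0.10), COBL (0.12), MFHAS1 (0.12), PHLPP1 (0.12) and RAD54L2 (0.14). For CTNNA1 they were CLEC16A (0.10), EIF2AK1, HOXB3, GALNT14 and TNFRSF10B (0.11 to 0.12). The nearest to CDH2 were more distant, from ZNF493 (0.32) and ICA1L (0.42) to SSTR2 (0.51), SLC44A5 and ABHD12B (0.55 each). None of these 15 genes is a cadherin or a catenin.

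The other genes of the cadherin-catenin system were taken as 9 lists by textbook role, 130 genes in all. Of the 95 tested, 35 were called up and 8 down, beside 28.6% and 17.6% of all genes, and their median log2 fold change was 0.97 against 0.32. These lists hold genes that could only be called up, having almost no parental counts. With length and GC offsets 18.9% of the lists were called up and 4.21% down, near the 17.8% and 6.55% of all genes in that fit.

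Among 15 other classical cadherins, 7 could be tested, of which 3 were called up and 2 down (median 0.97). The 3 called up (CDH7, CDH10 and CDH19) entered the test through the p85β KR-AA libraries alone and could only be called up. CDH22 entered through the parental libraries alone and could only be called down. Of the 2 with at least 10 counts in every library, 0 were called up and 1 down. CDH19, a cadherin of Schwann cell precursors, had no parental count and 809, 620 and 336 counts in p85β KR-AA libraries, at least 85.3-fold higher than the 3 counts that a 0 allows in a parental library. CDH7 rose at least 22.9-fold by the same floor (0 against 208, 157 and 106 counts), and CDH10, on 3, 0 and 0 parental counts, reached 325, 293 and 157 counts. CDH22 (log2 fold change -4.38) and CDH15, the muscle cadherin (-2.62), fell, and CDH15 was not called with length and GC offsets (-0.93). CDH24, which had the third highest parental share among the 22 cadherins above, was not called (-1.43 ± 0.16, adjusted p = 2.72e-06), and the value was 0.17 with length and GC offsets. CDH5, the cadherin of endothelial cells and also one of the endothelial markers, had at most 2 counts in any library.

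Desmosomal cadherins anchor intermediate filaments and bind plakoglobin and plakophilins. The 3 of 7 that could be tested were called up, DSG2 from 20.7 ± 2.12 to 152 ± 20.7 CPM (log2 fold change 2.88 ± 0.15), DSC2 by 2.33 and DSC3 by 1.78. DSC3, on 10.9, 4.9 and 9.4 parental counts, entered the test through the p85β KR-AA libraries. Of the 2 with at least 10 counts in every library, 2 were called up. With length and GC offsets the values for DSG2, DSC2 and DSC3 were 0.96, -0.44 and -0.55, and 0 of the 3 were called. Of 29 large and atypical cadherins, 15 were tested and 8 called up, with 0 called down. With length and GC offsets 5 were called up, and of the 8 with at least 10 counts in every library 3 were called up. FAT1, a giant cadherin of cell polarity, went from 88.3 ± 46.8 to 868 ± 3.94 CPM (log2 fold change 3.30, or 1.15 with these offsets), PCDH9 from 0, 0 and 1 counts to 154, 122 and 92, and FAT4 from 0, 2 and 0 counts to 186, 195 and 138. PCDH20 was at least 12.1-fold higher against the floor of 3 counts.

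Neither β-catenin nor plakoglobin, the catenins that bind the cadherin tail beside p120-catenin, was called. CTNNB1 (β-catenin) went from 141 ± 30.9 to 216 ± 18.3 CPM (log2 fold change 0.62 ± 0.16, adjusted p = 0.00350), under the fold required, and was at -0.26 with length and GC offsets. JUP (plakoglobin, the β-catenin relative of desmosomes) went from 627 ± 104 to 439 ± 44 CPM (-0.51 ± 0.15, adjusted p = 0.00556), but stood at 0.41 by library totals. Of 10 tested genes in the list of other catenins and plakophilins, CTNND2 (δ-catenin, of neurons) was at least 33.8-fold higher on 279, 203 and 206 counts against 0. PKP2 rose (1.71) and PKP3, the plakophilin of simple and stratified epithelia, fell by 2.81 on the log2 scale, from 919 ± 119 to 131 ± 8.03 CPM. Both calls ended with length and GC offsets (0.79 and -1.05).

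Of 12 proteins that tie the junction to actin, 5 were called up and 0 down (median 0.81), among them AFDN (afadin, 2.88), LIMA1 (EPLIN, which binds α-catenin, 2.42), ENAH (2.27) and FMN1 (2.24), and with length and GC offsets 0 were called. Nectins and other junction partners gave 4 up and 1 down of 14 (median 0.68), 7 up and 0 down by library totals, and 1 up and 1 down with length and GC offsets. PTPRM, a phosphatase that binds cadherins, rose from 27, 11 and 22 counts to 2155, 1707 and 1486 (log2 fold change 5.43 ± 0.23, and 4.96 with offsets). NECTIN2 fell (-1.94 ± 0.13), but was not called by library totals (-1.02) or with offsets (-0.52). TJP1 (ZO-1) rose by 3.0 and MAGI1 by 1.65, and neither was called with offsets (1.24 and 1.02). Among 12 genes of cadherin shedding and uptake 4 were called up and 0 down (median 0.82), against 1 up and 2 down with length and GC offsets. Called up were ADAM10, the protease that sheds E-cadherin (2.43 ± 0.19), NUMB, an endocytic adaptor (2.28), CBLL1, a ubiquitin ligase for E-cadherin (1.84), and NCSTN, a γ-secretase subunit (1.75). With the offsets these stood at -0.30, 1.30, 0.31 and 1.84, and NCSTN was still called.

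The transcription factors known to repress CDH1 were called up in 5 of 7 tested genes and down in 1 (12 in the list). All 5 called up entered the test through the p85β KR-AA libraries alone and could only be called up. In a separate edgeR fit of the genes with at least 10 counts in every library, 2 repressors were tested and 0 called. SNAI1, called down in the main fit, was 1 of these 2. ZEB2 had no parental count and 611, 523 and 330 counts in p85β KR-AA libraries, at least 71.5-fold higher against the floor of 3 counts. ZEB1 (56, 33.1 and 35 counts against 0) was at least 6.03-fold higher and TWIST2 at least 6.57-fold higher. SNAI2 (SLUG) went from 2, 0 and 0 counts to 173, 151 and 109 counts (6.54 ± 0.55). SNAI1 (SNAIL) fell from 14.5 ± 1.01 to 4.38 ± 0.278 CPM (-1.73 ± 0.18), with -0.06 under length and GC offsets, and TWIST1 had 5, 0 and 1 parental counts and none in p85β KR-AA libraries. In p85β KR-AA libraries ZEB1, ZEB2 and SNAI2 were at levels of 1.32 ± 0.192, 15.6 ± 3.22 and 4.65 ± 0.646 CPM. CDH1 was higher in the same libraries in the main fit (log2 fold change 1.82) and was not called with length and GC offsets (0.97). A relation between CDH1 and these factors was not tested.

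Of 17 regulators that maintain epithelial genes, 15 were tested, with 1 called up and 3 down (median 0.58). EHF rose (2.46 ± 0.18), while OVOL2 (-2.60), OVOL1 (-2.48) and CDX2 (-1.98), which is also one of the colon epithelium markers, fell. By library totals the same list gave 6 up and 1 down, and with length and GC offsets 2 up and 0 down (OVOL2 -0.95, OVOL1 -1.39 and CDX2 -1.15). Of the markers of other cell types, 1 of 5 tested endothelial genes was called up and 3 down, 4 of 6 neuronal genes were called up, and 0 of 3 blood genes were called by edgeR. By library totals 0 endothelial genes were called down. With length and GC offsets 1 was called down and 2 of 3 blood genes up, and 0 of the 2 neuronal genes with at least 10 counts in every library were called. The neuronal list was led by NEFL, at least 602-fold higher against the floor of 3 counts, with a summed level of 523 to 610 CPM in parental and 349 to 370 CPM in p85β KR-AA libraries. The part of these cell type markers in the cadherin results was not tested.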

How the data were processed

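Total RNA of 3 parental and 3 p85β KR-AA libraries was prepared with a TruSeq kit that does not mark strand, so that a gene and its antisense partner cannot be told apart. The authors deposited expected counts (RSEM estimated counts, not normalized) per Ensembl gene and a gene length. The submitters' processing notes name HISAT2 2.1.0, RSEM 1.3.1, DESeq2 1.24.0 and hg18, and the study's methods give trimming with SeqPrep and Sickle and the thresholds used here, a fold of 3 and an adjusted p under 0.01.

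Counts were rounded and passed to edgeR 4.0.16 (R 4.3.3). Genes were kept by filterByExpr at a count of 10 and a total of 15, libraries were scaled by TMM, and the quasi-likelihood F test was run without covariates, with Benjamini-Hochberg adjustment. The design had allowed for whole or expected counts. Each SE is the size of the log2 fold change over the square root of F. CPM used TMM-scaled library sizes and TPM the deposited lengths. Symbols and positions were joined by Ensembl identifier from GENCODE release 44 on GRCh37 (56745 of 58884 genes), and GC content from the longest transcript (15902 of 16059 tested genes). Positions are those of the annotation, not of the build behind the counts. Ratios within libraries were tested by exact permutation with SciPy 1.17.1.

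The 9 genes, the lists of related genes and the marker lists were chosen with earlier results of these data known. Named from each list were at most 4 called genes per direction with the largest absolute log2 fold change, CTNNB1, JUP, SNAI1, SNAI2, ZEB1, ZEB2, TWIST1 and CDH5 whatever their result, and the 5 protein-coding genes nearest to CDH1, CDH2 and CTNNA1. EPCAM, KRT20, COL1A2, PDGFRA, COL5A1, COL6A3, DCN, CDH24 and HSBP1 were named after their values were seen. One gene that this rule names is not reported here. PECAM1, of the endothelial list, matched no gene of the table. Alternatives were DESeq2 1.42.0, library totals, other filters, another call rule, a block on replicate number, leaving out each library, other numbers added to ratios, shares of counts, and offsets for length and GC content (robust spline with 5 degrees of freedom per library, MASS 7.3.60.0.1). The code was tested on simulated counts. Depth was 20301396 to 26712816 counts per library, and 3 counts, the limit that a count of 0 allows, were worth 0.0818 to 0.218 CPM. Within each group, any pair of libraries differed by more than sampling noise (chi-square per degree of freedom 4.29 to 39.1).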

Additional observations from a re-analysis of the deposited data

How the results depend on the processing

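Over 109 values of the 8 tested genes under an alternative, 97 kept their direction and their side of the threshold. Library totals gave 7052 genes called up and 973 down in place of 4597 and 2825, 4 genes of the related lists down in place of 8, CDH3 at 0.63 in place of -0.29, and CTNNA1 called up at 2.26. At least 10 counts in every library left 2898 genes called up, and CDH2, CDH11 and CDH13 then had no value. Length and GC offsets gave 2831 genes up and 1042 down, 18 and 4 of the related lists in place of 35 and 8, CDH1 at 0.97, CDH17 at 1.36 and CDH2 at 2.21, none of these 3 called, and CTNND1 at -0.18. With a length offset alone CDH1 (0.98) and CTNND1 (0.58) were not called. A fold of 2 and an adjusted p under 0.05 gave 4289 genes down and 20 of the related lists. DESeq2 did not call CDH2 (3.53, adjusted p = 0.0176). The difference in the log2 ratio of CDH1 to CDH2 was 0.56 with 3 added to each count in place of -1.28 with 0.5. As shares of counts without the length, CDH3 made up 56.3% in parental libraries, CDH11 31.1% and CDH13 8.10% in p85β KR-AA libraries, the epithelial cadherins 86.4% in parental libraries and the mesenchymal ones 39.3% in p85β KR-AA libraries. Leaving out each library in turn gave ranges of 1.54 to 2.01 for CDH1 (not called without parental replicate 2) and 2.85 to 6.65 for CDH2 (not called without parental replicate 1 or 2), and 11.09 to 11.99 for CDH11 and 8.36 to 9.50 for CDH13, called throughout. The causes of these shifts were not tested.

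The replicate numbers did not pair the libraries. Deviations of same-numbered libraries correlated at -0.136, 0.119 and -0.045. Blocking on replicate number, 4626 genes were called up and 2827 down (4618 and 2823 with robust moderation), and CDH1 stood at 1.88, CDH2 at 3.41 and CTNND1 at 1.89, and the block changed no call among the 8 genes. edgeR's prior degrees of freedom were infinite in the block fits and without the filter on low counts, so that their p-values are not given. Depth limits CDH2, CDH6 and the parental levels of CDH11 and CDH13, which rest on at most 4 counts per library.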
